A study of Mus musculus with 6 samples.

Results

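Genes of oxidative phosphorylation were compared between mouse dorsal root ganglia and spinal cord. They were chosen by name: all probe sets annotated to a single gene whose symbol starts with Nduf, Atp5 or Uqcr, starts with Cox and a digit from 4 to 8, or is Sdha, Sdhb, Sdhc or Sdhd. This gave 179 of the 34945 probe sets that name a single gene, and 90 of the 18192 genes. By known function, 34 of the 90 encode subunits of complex I, 4 of complex II, 8 of complex III, 19 of complex IV and 17 of complex V, and the other 8 are assembly factors of complex I. Ndufa4 and its relative Ndufa4l2 were counted with complex IV, where the Ndufa4 protein is now placed.

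The arrays held total RNA of lumbar dorsal root ganglia (DRG), where sensory neurons have their cell bodies, and of lumbar spinal cord (SC), both from male C57BL/6J mice aged 3 months. The labels name no transgene, deletion or treatment in either tissue. There were 3 arrays per tissue, and each measured a pool of 4 mice, so that p-values measure the spread between pools. In tissue RNA, fewer cells of a type and less RNA per cell cannot be told apart. Values are MAS5 signals recovered from the deposited ratios and kept on the deposited array scaling. Differences are on the log2(signal + 16) scale, DRG minus SC, which understates the change of dim genes. A gene was called where its adjusted p in limma's test over all 18192 genes was under 0.05.

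Oxidative phosphorylation makes most of the ATP of neurons. Complex I takes electrons from NADH and complex II takes them from succinate, complex III passes them to cytochrome c, and complex IV passes them on to oxygen. The proton gradient this builds across the inner mitochondrial membrane drives complex V, the ATP synthase. The genes in the nucleus studied here supply most subunits of these complexes, while a small set of core subunits comes from mitochondrial DNA and was not covered by the choice of names. Several subunits of complex IV have a widespread form and another form best known from muscle, lung or testis.

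The arrays matched their labels. Pearson correlations of log2 signals over all genes ran from 0.974 to 0.977 among DRG arrays, from 0.973 to 0.976 among SC arrays and from 0.887 to 0.892 across tissues. All 7 measured sensory neuron markers were called higher in DRG, with summed signals of 27593 to 28601 in DRG and 612 to 754 in SC. All 6 astrocyte and all 5 oligodendrocyte markers were called higher in SC. Muscle genes varied between arrays of the same tissue: the summed signal of 16 muscle markers was 714, 906 and 2512 on the DRG arrays and 884, 2775 and 3416 on the SC arrays, so that the tissues overlapped. Of these 16 markers, 3 were called, all higher in SC: Myh2, Mb and Myh7. Myh2 and Mb did not exceed the array background (defined below) on any array, and Myh7 exceeded it on 1 SC array only. The part of muscle RNA in the results below was not tested beyond leaving out the 3 arrays of high muscle signal.

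Nearly all of these genes were well expressed in both tissues, and the tissues differed little. Of the 90 genes, 80 lay above the array background on all 6 arrays. The array background is the 95th percentile of the signals of 48 probe sets for 37 genes that neither tissue should express. It was 114 to 129 on the DRG arrays and 93.4 to 105 on the SC arrays. On the deposited scaling, 62 genes were called higher in DRG, 1 was called higher in SC and 27 did not pass the test. Among all genes, the shares called were 32.7% toward DRG and 10.2% toward SC. The median difference of the 90 genes was 0.40, beside 0.18 for all genes, and their quartiles were 0.20 and 0.55.

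The direction of these small differences depended on how the arrays were scaled. With quantile normalization, the median of the 90 genes was -0.14, with 14 genes called toward DRG (beside 21.4% of all genes) and 33 called toward SC (beside 16.8% of all genes). With the signals before the array factors of the deposited scaling, the median was 0.04, with 20 genes called toward DRG (beside 19.7% of all genes) and 16 called toward SC (beside 20.5% of all genes). The median of all genes itself moved, to 0.04 with quantile normalization and -0.10 before the array factors. Relative to the median of all genes, the median of the 90 genes was 0.22, -0.18 and 0.14 on the 3 scalings. Of the 62 genes called higher in DRG on the deposited scaling, 17 (27.4%) were called higher in SC after quantile normalization. Of all genes called higher in DRG on the deposited scaling, 2.79% turned in this way, and of the other bright genes so called, 8.4% did. A call on the deposited scaling alone therefore gives no settled direction, and the genes called in the same direction on all 3 scalings are given first.

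The oxidative phosphorylation genes are bright, so they were also set beside other bright genes. Among the 1820 genes of highest signal, with a mean of at least 1100, 69 were of oxidative phosphorylation. On the deposited scaling, 76.8% of these 69 genes were called higher in DRG, beside 76.1% of the other 1751 bright genes. After quantile normalization the shares called toward DRG were 15.9% of these 69 genes and 42.3% of the other bright genes, and those called toward SC were 44.9% and 29.4%. Before the array factors, 24.6% and 54.9% were called toward DRG, and 14.5% and 20.3% toward SC. The medians of the 69 genes were 0.42, -0.16 and 0.05 on the 3 scalings, below those of the other bright genes at 0.65, 0.08 and 0.28. On the deposited scaling their quartiles were 0.22 and 0.56, against 0.26 and 1.06 for the other bright genes, and 1.45% of them were called with a difference of at least 1 on the log2 scale, against 32.3% of the others.

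**Figure D1:**
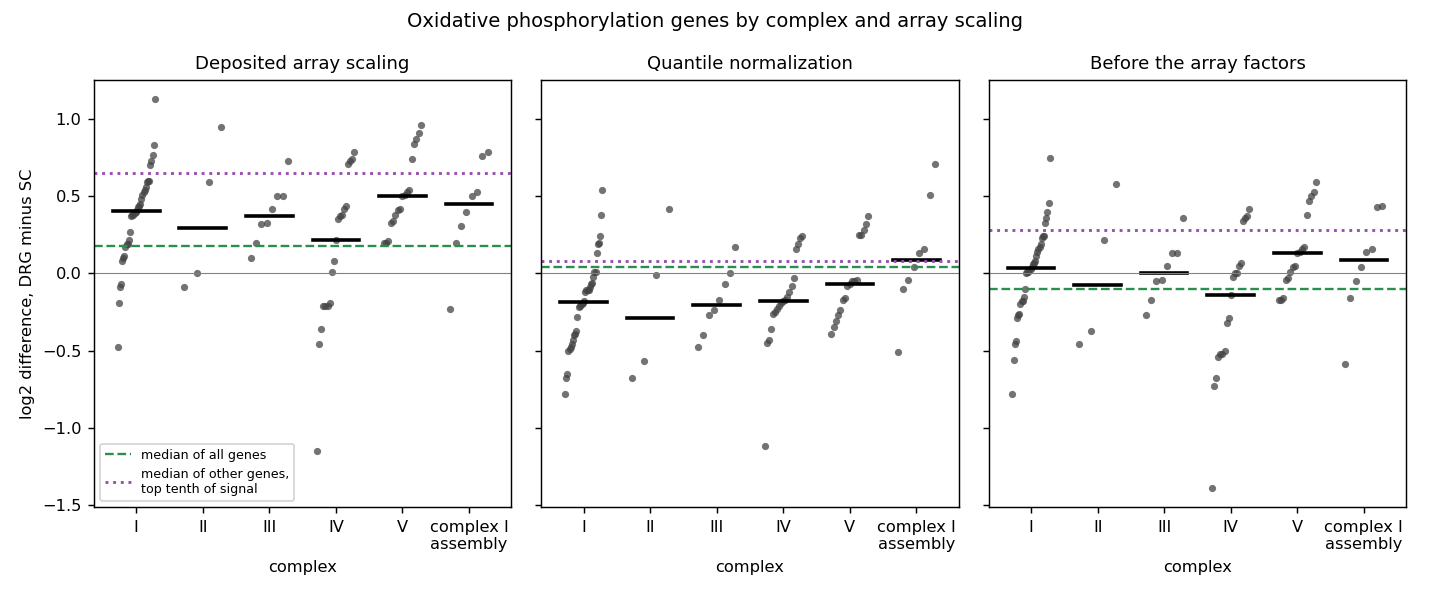
Log2 difference, DRG minus SC, of each of the 90 genes by complex, on 3 array scalings; each point is a gene, the black bar is the median of the complex, and the lines mark the medians of all genes and of the other bright genes. The points shift together between panels, and 7 of the 14 genes below 0 on the deposited scaling belong to complex IV. These 7 genes lie at or near the array background.

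In all, 14 genes were called higher in DRG on all 3 scalings and 1 was called higher in SC, against 17.8% and 10.1% of all genes. The share called toward DRG was thus not above that of all genes. Among bright genes, 11 of the 69 were called so, against 739 of the other 1751. The genes called on all 3 scalings were singled out after their values were seen, apart from those that the rule for named genes gives. The 14 comprise Ndufv3 and Ndufs4 of complex I, Sdhd of complex II, Uqcr11 of complex III, Ndufa4, Cox6a1, Cox6b1 and Cox7a2 of complex IV, Atp5d, Atp5g1, Atp5l, Atp5md and Atp5mpl of complex V, and the assembly factor Ndufaf7. Their differences on the deposited scaling ran from 0.70 for Ndufs4 to 1.13 for Ndufv3. Each call rests on the brightest probe set of the gene, and other probe sets above background did not always share it after quantile normalization. When tested among all probe sets after quantile normalization, the brightest ones of Cox6a1, Uqcr11, Sdhd and Atp5md missed the threshold (limma adjusted p = 0.0528, 0.0585, 0.0509 and 0.058). Of the 14, 13 stayed called under all alternatives that tested them. Atp5g1 lost its call (0.25, limma adjusted p = 0.19) when averaged with a second probe set, which lay below background on every array. Atp5d and Ndufaf7 were not tested in the alternative without probe sets named _x_at or _s_at, as all of theirs end in _s_at. The gene called higher in SC, Cox7b2, did not exceed the array background on any array, and lost its call on the log2 of the deposited ratio (limma adjusted p = 0.0667) and without the 3 arrays of high muscle signal (limma adjusted p = 0.192).

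**Figure D2:**
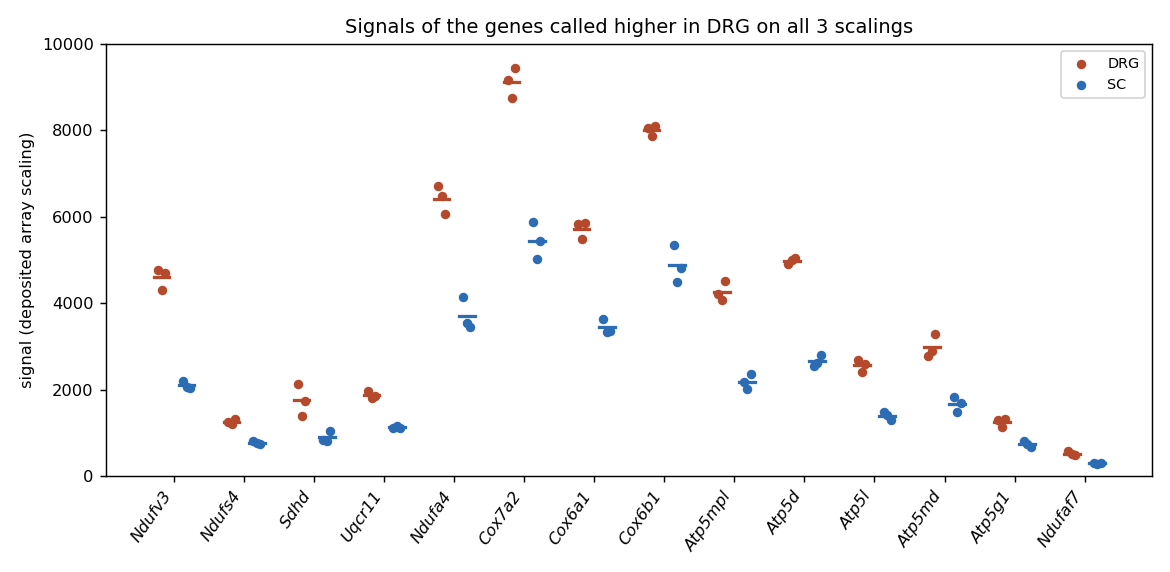
Signals (deposited array scaling, linear axis) of the 14 genes called higher in DRG on all 3 scalings, with a point per array, DRG left of SC, and a bar at the mean of each tissue. In all 14 genes the 3 DRG points lie above the 3 SC points, and the heights of different genes are not comparable because probes differ.

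The promoters of 4 genes are shown because their genes mark the range of the data: Ndufv3 with the highest difference, Sdhd and Sdha at both ends of complex II, and Cox6a1, a complex IV gene that was called on all 3 scalings. The windows run from 250 bases before to 50 bases after the gene's start, from RefSeq on GRCm38.p6, and are written 5′ to 3′ on the gene's strand. They are chr17:31519865-31520164 on the plus strand for Ndufv3 and, on the minus strand, chr9:50603800-50604099 for Sdhd, chr13:74350191-74350490 for Sdha and chr5:115348909-115349208 for Cox6a1. Capitals mark matches, on either strand, to motifs of factors known to act on genes of the respiratory chain: GCGCA, any base and then GCGC for NRF1, CCGGAAG for ETS factors such as GABP, ATGGCG for YY1 and AAGGTCA for the estrogen-related receptors (ERR).
Ndufv3: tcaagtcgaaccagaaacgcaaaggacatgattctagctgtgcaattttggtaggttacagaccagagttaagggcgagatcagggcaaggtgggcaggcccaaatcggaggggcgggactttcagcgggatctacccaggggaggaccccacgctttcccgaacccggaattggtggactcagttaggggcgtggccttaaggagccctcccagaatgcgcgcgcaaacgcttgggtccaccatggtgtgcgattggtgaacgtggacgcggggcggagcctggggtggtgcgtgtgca
Sdhd: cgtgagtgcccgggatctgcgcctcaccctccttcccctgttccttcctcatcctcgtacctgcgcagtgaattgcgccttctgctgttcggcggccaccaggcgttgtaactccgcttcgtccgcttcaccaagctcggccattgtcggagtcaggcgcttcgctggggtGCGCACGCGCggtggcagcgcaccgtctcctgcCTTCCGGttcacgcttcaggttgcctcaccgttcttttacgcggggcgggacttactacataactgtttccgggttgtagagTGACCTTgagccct
Sdha: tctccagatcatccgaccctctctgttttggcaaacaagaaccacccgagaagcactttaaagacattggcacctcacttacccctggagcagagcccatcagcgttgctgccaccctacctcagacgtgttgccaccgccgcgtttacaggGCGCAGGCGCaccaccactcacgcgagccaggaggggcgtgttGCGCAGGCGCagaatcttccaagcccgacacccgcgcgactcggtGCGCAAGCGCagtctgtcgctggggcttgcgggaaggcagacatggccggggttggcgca
Cox6a1: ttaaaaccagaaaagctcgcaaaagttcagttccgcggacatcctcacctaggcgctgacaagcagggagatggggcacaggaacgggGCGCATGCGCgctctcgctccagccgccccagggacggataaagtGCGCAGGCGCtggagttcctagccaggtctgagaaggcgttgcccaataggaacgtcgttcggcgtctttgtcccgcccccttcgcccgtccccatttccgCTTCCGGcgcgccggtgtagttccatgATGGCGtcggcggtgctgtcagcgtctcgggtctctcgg

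The Ndufv3 window held none of the 4 motifs, the Sdha window held 3 NRF1 matches, the Sdhd window held NRF1, ETS and ERR matches, and the Cox6a1 window held NRF1, ETS and YY1 matches. A promoter was given for 74 of the 90 genes. A gene was counted where any window given for it held a match. NRF1 matches were found for 17 of the 74 genes (23.0%), against 5.19% of all 27025 genes with a promoter. Those 27025 were not limited to genes on the arrays or to expressed genes. ETS matches were found for 19 (25.7%, against 9.93%), YY1 matches for 20 (27.0%, against 10.2%) and ERR matches for 8 (10.8%, against 5.38%). At least 1 of the motifs was found for 48 genes (64.9%, against 25.9%), and none of the 4 motifs contains another. A match is a description of letters, not a site or a cause. Of the genes called higher in DRG on 3 scalings, Ndufv3, Cox7a2, Ndufa4, Atp5d and Atp5g1 had windows without a match.

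Complex I had a median difference of 0.41 over its 34 genes on the deposited scaling, with 23 called higher in DRG and 11 not called. The median was -0.18 after quantile normalization, where 2 genes were called toward DRG and 15 toward SC, and 0.04 before the array factors, where the counts were 7 and 6. Counts in this and later paragraphs stand beside 32.7% of all genes called toward DRG and 10.2% toward SC on the deposited scaling. These shares of all genes were 21.4% and 16.8% after quantile normalization, and 19.7% and 20.5% before the array factors. Ndufv3, an accessory subunit of the part that oxidizes NADH, had signals of 4765, 4313 and 4708 in DRG, against 2204, 2062 and 2026 in SC. All 3 DRG arrays were about the same height and far above the SC arrays. The difference was 1.13 ± 0.07 (SE, n = 3 per tissue, limma adjusted p = 1.21e-06), 0.54 after quantile normalization and 0.75 before the array factors. It was the gene with the highest difference of the 90, and 1 of 2 called with a difference of at least 1, against 11.6% of all genes in the DRG direction and 4.84% in the SC direction.

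Ndufs4, an accessory subunit whose loss in mice causes a disease like Leigh syndrome, had signals of 1257, 1195 and 1318 in DRG, against 816, 762 and 729 in SC. The groups did not overlap, and the difference was 0.70 ± 0.07 (SE, n = 3 per tissue, limma adjusted p = 3.82e-05). It was measured by several probe sets, whose differences ran from 0.21 to 1.17 among those above background on all 6 arrays.

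The core subunits of complex I carry the flavin and the iron-sulfur clusters that move electrons, and 6 were measured here. Their median was 0.25 on the deposited scaling, with 4 called higher in DRG, and -0.32 after quantile normalization, with 5 called higher in SC. Ndufs8, an iron-sulfur core subunit, stood apart at 0.83, and was the only core subunit that stayed positive after quantile normalization (0.24, limma adjusted p = 0.0678). Its signals were 3739, 4301 and 4185 in DRG, against 2525, 2270 and 2058 in SC, with no overlap. The other probe sets of Ndufs8, all above background on 6 arrays, gave 0.36 to 0.66 on the deposited scaling. After quantile normalization they gave -0.14 to 0.14, so that how far Ndufs8 stands apart depends on the probe set. Ndufs1, which binds several of the iron-sulfur clusters, had signals of 1454, 1498 and 1483 in DRG, against 1265, 1233 and 1175 in SC. Ndufv1, which binds NADH and the flavin, had 2124, 1713 and 2021 in DRG, against 1703, 1661 and 1739 in SC, and the arrays overlapped. Its difference was 0.19 and did not pass the test (limma adjusted p = 0.102).

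The 28 supernumerary subunits, which surround the core, had a median of 0.44 on the deposited scaling, with 19 called higher in DRG, and -0.12 after quantile normalization. At the low end, Ndufb5 had signals of 2408, 2799 and 2864 in DRG, against 3162, 2974 and 3049 in SC. All 3 SC arrays lay above the DRG arrays, and the difference of -0.19 did not pass the test on the deposited scaling (limma adjusted p = 0.0852). Ndufb10 and Ndufa12 were also at or below 0, at -0.07 and -0.09, with overlapping arrays. These 3 genes were among 12 of the 90 called higher in SC both after quantile normalization and before the array factors, beside 15.2% of all genes. The others were Atp5a1, Cox4i1, Cox7b2, Ndufaf2, Ndufb9, Ndufs7, Sdha, Sdhc and Uqcrc2.

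The lowest value of complex I belonged to Ndufb4 (-0.48), whose single-gene probe set did not exceed the array background on any array, with means of 56.7 in DRG and 84.4 in SC. Other probe sets that Ndufb4 shares with the named copies Ndufb4b and Ndufb4c were bright and stood outside the choice of members. They had means of 3196 ± 217 in DRG and 1687 ± 155 in SC, and of 1997 ± 176 in DRG and 1296 ± 78.8 in SC (SD, n = 3 each). The single-gene value therefore gives no direction for the subunit.

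Complex II, succinate dehydrogenase, also belongs to the citric acid cycle, and its 4 genes split into a pair that was higher in DRG on the deposited scaling and a pair without a difference there. Sdhd, a membrane anchor, had signals of 2131, 1384 and 1746 in DRG, against 836, 809 and 1032 in SC. The DRG arrays were spread widely but all lay above the SC arrays, and the difference was 0.95 ± 0.15 (SE, n = 3 per tissue, limma adjusted p = 0.000614). Its other probe set, of lower signal, gave 0.39 with overlapping arrays and did not pass the test (limma adjusted p = 0.276 over probe sets). Sdhb, the iron-sulfur subunit, had signals of 3424, 3151 and 3378 in DRG, against 2357, 2208 and 2018 in SC. Its difference was 0.59 on the deposited scaling but -0.01 after quantile normalization and 0.22 before the array factors.

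Sdha, the flavoprotein that binds succinate, had signals of 3162, 2479 and 2771 in DRG, against 3095, 2948 and 2890 in SC. Sdhc, the other membrane anchor, had 1545, 1362 and 1544 in DRG, against 1511, 1387 and 1559 in SC. The arrays of both tissues overlapped for both genes, with differences of -0.09 and 0.00 that did not pass the test (limma adjusted p = 0.466 and 0.984). On the other scalings both were called higher in SC, Sdha by -0.68 and -0.46 and Sdhc by -0.57 and -0.37. On their brightest probe sets, Sdhd stayed above 0 and Sdha below 0 on each scaling, although both belong to the same enzyme. The other bright probe set of Sdha gave 0.00 on the deposited scaling and -0.60 after quantile normalization.

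Complex III had a median of 0.38 over 8 genes on the deposited scaling, with 6 called higher in DRG, and -0.21 after quantile normalization, with 1 called toward DRG and 4 toward SC. Uqcr11, a small subunit of the complex, had signals of 1962, 1807 and 1852 in DRG, against 1106, 1159 and 1100 in SC. The groups did not overlap, and the difference of 0.73 ± 0.06 (SE, n = 3 per tissue, limma adjusted p = 1.12e-05) was 0.17 after quantile normalization. Uqcrfs1, the Rieske iron-sulfur protein that moves electrons through the complex, had 2650, 2548 and 2640 in DRG, against 1956, 2023 and 1857 in SC. Uqcrc1, a core subunit without a redox centre, had 2883, 2424 and 3117 in DRG, against 2688, 2259 and 2885 in SC, with overlapping arrays. Its difference of 0.10 did not pass the test (limma adjusted p = 0.524), and it was -0.48 after quantile normalization. Cyc1, the cytochrome of the complex, has a name outside the choice of members and is given with the electron carriers.

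Complex IV has widespread and tissue-restricted subunit genes, and most of the restricted ones were too dim to give a direction. The 10 widespread forms had a median of 0.43 on the deposited scaling, with 8 called higher in DRG, against -0.10 after quantile normalization and 0.06 before the array factors. The 7 tissue-restricted forms had a median of -0.21, -0.25 and -0.52 on the 3 scalings, and Cox8c alone exceeded background on all 6 arrays. Cox7c, a widespread subunit, had means of 49.7 in DRG and 60.0 in SC, under background on every array, so that its probe set gives no direction.

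Among the widespread forms, Ndufa4 had the highest difference. Its signals were 6703, 6485 and 6059 in DRG, against 4132, 3542 and 3442 in SC, and the difference was 0.79 ± 0.09 (SE, n = 3 per tissue, limma adjusted p = 4.93e-05). Cox7a2, Cox6a1 and Cox6b1, widespread forms of small subunits around the catalytic core, followed. Cox7a2 had 9162, 8748 and 9435 in DRG, against 5886, 5013 and 5448 in SC, a difference of 0.74 ± 0.08. Cox6a1 had 5840, 5477 and 5856 in DRG, against 3629, 3334 and 3351 in SC, a difference of 0.73 ± 0.07. Cox6b1 had 8045, 7878 and 8093 in DRG, against 5344, 4499 and 4816 in SC, a difference of 0.71 ± 0.08. In all 3 genes every DRG array lay above every SC array, and all stayed called after quantile normalization, at 0.23, 0.16 and 0.19. These calls rest on the brightest probe set of each gene, tested among genes. Tested among all probe sets, that of Cox6a1 missed the threshold after quantile normalization (limma adjusted p = 0.0528). The other probe set of each, also above background on all 6 arrays, gave 0.00, 0.04 and 0.09 after quantile normalization and was not called there.

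Cox4i1, the widespread form of the largest nuclear subunit, was different. Its signals were 5973, 5192 and 6101 in DRG, against 5742, 5128 and 5466 in SC, and the arrays overlapped. The difference was 0.08 (limma adjusted p = 0.52) on the deposited scaling, and the gene was called higher in SC on the other scalings, at -0.45 and -0.29. Cox8a, the widespread form of the smallest subunit, lay between, with 4469, 3909 and 4670 in DRG, against 3556, 3213 and 3257 in SC. It was called at 0.38 on the deposited scaling, but gave -0.21 after quantile normalization and 0.00 before the array factors.

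The other tissue-restricted forms lay at or near background. Cox4i2, the form known from lung, had 88.7, 69.7 and 80.4 in DRG, against 120, 95.8 and 105 in SC. Cox6a2, a heart and skeletal muscle form, had 122, 136 and 123 in DRG, against 148, 164 and 131 in SC. Cox7a1, also of heart and skeletal muscle, had 145, 91.1 and 126 in DRG, against 101, 127 and 127 in SC. None of these 3 genes passed the test on the deposited scaling. The arrays of the muscle forms overlapped between tissues, while all DRG arrays of Cox4i2 lay below its SC arrays. Before the array factors, Cox4i2 and Cox6a2 were called higher in SC, at -0.68 and -0.52 (limma adjusted p = 0.02 and 0.0315). Cox8b, a further muscle form, had 37.7, 53.5 and 19.0 in DRG, against 33.9, 67.0 and 67.0 in SC, below background on all arrays.

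Forms known from testis gave mixed values. Cox6b2 had 77.7, 62.6 and 72.3 in DRG, against 76.0, 85.1 and 91.5 in SC, and Cox7b2 had 32.9, 5.27 and 17.4 in DRG, against 56.6, 53.8 and 58.5 in SC, all below background. Cox8c was the exception: it had 574, 638 and 568 in DRG, against 586, 446 and 500 in SC, above background on all 6 arrays. Its difference was 0.22 and did not pass the test (limma adjusted p = 0.143), but without SC replicate 1 it was 0.32 and passed (limma adjusted p = 0.0381). Its other probe set had means of 126 in DRG and 244 in SC, a difference of -0.88 (limma adjusted p = 0.00185 over probe sets), so that the probe sets of Cox8c disagreed in direction. Ndufa4l2, the relative of Ndufa4 known from cells short of oxygen and from vessel walls, had 118, 109 and 113 in DRG, against 132, 134 and 137 in SC. Its difference of -0.21 did not pass the test on the deposited scaling (limma adjusted p = 0.335). Before the array factors it was called higher in SC (-0.54, limma adjusted p = 0.0227).

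**Figure D3:**
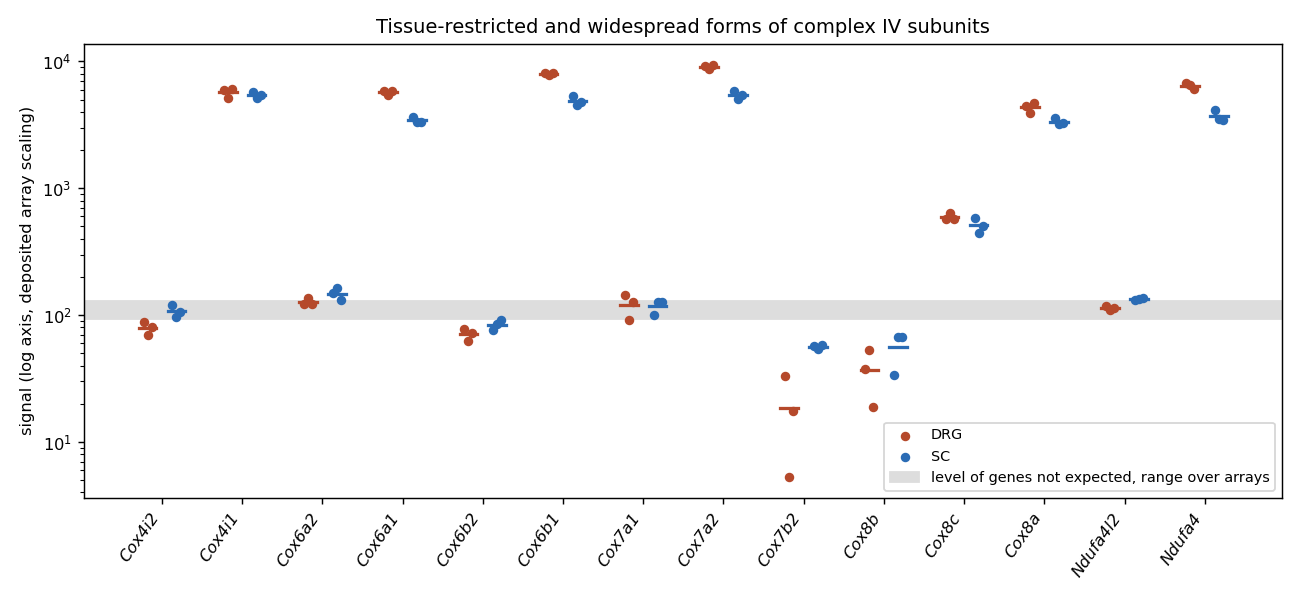
Signals (log axis, deposited array scaling) of tissue-restricted and widespread forms of complex IV subunits, with a point per array, DRG left of SC, and a bar at the mean. The grey band is the range of the background over the arrays (93.4 to 129): restricted forms other than Cox8c lie below it, in it or just above it, and heights of different genes are not compared.

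The balance within each pair of forms was compared as the log2 signal of one form minus that of the other on each array. This cancels a factor common to an array, apart from the pseudocount, but not quantile normalization, which scales dim and bright genes differently. The Ndufa4l2 minus Ndufa4 balance was -5.64, -5.70 and -5.55 in DRG, against -4.81, -4.57 and -4.50 in SC, a difference of -1.01. The Cox6a2 minus Cox6a1 balance was -5.41, -5.17 and -5.40 in DRG, against -4.47, -4.22 and -4.51 in SC, a difference of -0.92. The Cox7a1 minus Cox7a2 balance was -5.84, -6.36 and -6.05 in DRG, against -5.66, -5.14 and -5.26 in SC, a difference of -0.73. In each of these pairs the DRG arrays lay below the SC arrays. The restricted form of each pair lay at or near background, so that its own level is not resolved by these balances.

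Differences were -0.92 for Cox6b2 and Cox6b1, -0.84 for Cox8b and Cox8a, -0.44 for Cox4i2 and Cox4i1, and -0.16 for Cox8c and Cox8a, of which the Cox8b and Cox8c balances overlapped between tissues. With quantile normalization the differences in balance shrank to -0.50 for Ndufa4l2, -0.41 for Cox6a2, -0.38 for Cox6b2, -0.26 for Cox7a1 and -0.22 for Cox8b, and turned to 0.09 for Cox4i2 and 0.05 for Cox8c. The sign of the Cox8b balance turned without the 3 arrays of high muscle signal, to 0.06. The 3 genes of the complex V c ring, which encode the same mature protein, differed little in balance. Atp5g1 minus Atp5g3 gave 0.32, Atp5g1 minus Atp5g2 gave 0.34 and Atp5g2 minus Atp5g3 gave -0.01. With the mean of all probe sets in place of the brightest, the Atp5g1 balances were -0.17 and -0.03. The exact two-sided permutation test gave p = 0.1, the smallest that 3 against 3 arrays allow, for 7 of the 10 balances compared, or 0.143 after Benjamini-Hochberg adjustment over them. For the Cox8b, Cox8c and Atp5g2 minus Atp5g3 balances it gave 0.2, 0.3 and 0.9.

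Complex V had the highest median of the complexes on the deposited scaling, 0.50 over 17 genes, of which 16 were called higher in DRG. After quantile normalization it was -0.07, with 5 called toward DRG and 6 toward SC. On the deposited scaling, 32.7% of all genes and 76.1% of the other bright genes were called higher in DRG. After quantile normalization, 21.4% and 42.3% were called toward DRG, and 16.8% and 29.4% toward SC. The 5 accessory subunits of the membrane part had medians of 0.84, 0.25 and 0.47 on the 3 scalings, and 3 of them, Atp5mpl, Atp5l and Atp5md, were called higher in DRG on each. These subunits help to hold synthase dimers together, which bend the inner membrane. Atp5mpl, the proteolipid subunit, had signals of 4207, 4075 and 4516 in DRG, against 2164, 2014 and 2365 in SC, with a difference of 0.96 ± 0.08 (SE, n = 3 per tissue, limma adjusted p = 6.97e-06). Atp5l, subunit g, had 2687, 2399 and 2593 in DRG, against 1490, 1402 and 1297 in SC. Atp5md, also called DAPIT, had 2776, 2902 and 3282 in DRG, against 1824, 1480 and 1694 in SC. No DRG array of these genes lay within the range of the SC arrays. Atp5j2, subunit f, and Atp5k, subunit e, were called on the deposited scaling at 0.51 and 0.53 but gave -0.07 and -0.05 after quantile normalization.

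The 5 subunits of the catalytic head had a median of 0.34, 1 among them well above the rest. Atp5d, the delta subunit of the central stalk, had 4902, 4996 and 5057 in DRG, against 2552, 2620 and 2797 in SC. The DRG arrays stood close together and far above the SC arrays, with a difference of 0.91 ± 0.06 (SE, n = 3 per tissue, limma adjusted p = 2.97e-06). Atp5a1, the alpha subunit, had 5632, 5082 and 5562 in DRG, against 4912, 4604 and 4639 in SC, and Atp5b, the catalytic beta subunit, had 6716, 6348 and 6500 in DRG, against 5753, 5271 and 5886 in SC. They were called at 0.20 and 0.21 on the deposited scaling and gave -0.35 and -0.31 after quantile normalization. Atp5a1 was also called higher in SC before the array factors.

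Of the c ring genes, Atp5g1 had 1290, 1139 and 1315 in DRG, against 809, 744 and 668 in SC, with a difference of 0.74 ± 0.09. Atp5g2 had 1833, 1701 and 1802 in DRG, against 1390, 1343 and 1279 in SC, with a difference of 0.41 ± 0.07. Atp5g3 had 9278, 9061 and 8682 in DRG, against 7209, 6209 and 6821 in SC, with a difference of 0.42 ± 0.08. All 3 were called on the deposited scaling (limma adjusted p = 0.000109, 0.000641 and 0.00182), but Atp5g2 and Atp5g3 gave -0.17 and -0.05 after quantile normalization. Among the 4 peripheral stalk subunits, Atp5j (factor F6) was the only gene of complex V not called, with 4129, 3474 and 4063 in DRG, against 3622, 3157 and 3366 in SC. Its difference was 0.20 (limma adjusted p = 0.0996), it turned to -0.39 and -0.17 on the other scalings, and it was called without DRG replicate 2 (0.28, limma adjusted p = 0.021).

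The 8 complex I assembly factors, which build the complex but are not part of it, had a median of 0.45 on the deposited scaling, with 6 called higher in DRG, and 0.09 on both other scalings. Ndufaf7, a methyltransferase acting on a core subunit during assembly, had 570, 498 and 485 in DRG, against 301, 277 and 297 in SC. The groups did not overlap, with a difference of 0.79 ± 0.10 (SE, n = 3 per tissue, limma adjusted p = 0.000113) that was 0.51 and 0.43 on the other scalings. Ndufaf2, a relative of a complex I subunit that binds a late assembly intermediate, had 356, 287 and 345 in DRG, against 404, 349 and 411 in SC. Its arrays overlapped, and the difference of -0.23 (limma adjusted p = 0.148) became -0.51 and -0.59 on the other scalings, where it was called higher in SC.

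Some of the spread was shared by a single array. Over the 84 genes that exceeded background on all arrays of DRG, of SC or of both, DRG replicate 2 was the lowest DRG array for 69 (82.1%), against 58.0% of the 1820 bright genes. The median difference of the 90 genes was 0.45 without that array and 0.37 without either of the other DRG arrays. In all, 63 genes had DRG arrays that all lay above the SC arrays, against 37.9% of all genes, and 5 had SC arrays that all lay above, against 13.8%. Without the 3 arrays of high muscle signal, which leaves 2 DRG arrays and 1 SC array assumed to vary like them, the median was 0.33. In that fit, 21 of the 90 genes were called toward DRG, beside 19.8% of all genes, while 5.45% of all genes were called toward SC.

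Different probe sets of a gene mostly gave like differences. Of the 179 probe sets, 107 were called toward DRG and 2 toward SC on the deposited scaling, against 22.7% and 9.79% of all 45030 tested probe sets. After quantile normalization 17 and 47 were called, against 14.9% and 14.4% of all, and before the array factors 32 and 23, against 13.4% and 19.9%. In 43 genes, at least 2 probe sets exceeded background on all 6 arrays, and the median gap between the lowest and the highest difference of a gene was 0.13. It was over 0.5 in 6 genes: Atp5j2 (-0.34 to 0.63), Ndufs4 (0.21 to 1.17), Cox6c (0.44 to 1.10), Ndufa7 (0.56 to 1.20), Atp5a1 (0.20 to 0.80) and Sdhd (0.39 to 0.95). In Cox6c, a widespread complex IV subunit, the second probe set had 3756, 3928 and 4125 in DRG, against 1744, 1939 and 1788 in SC and was called on all 3 scalings, while the brightest gave -0.08 after quantile normalization. No gene had probe sets called in opposite directions on the deposited scaling, but Atp5a1 did after quantile normalization, and Atp5j2 and Ndufab1 did before the array factors.

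Neighbouring genes of mitochondrial metabolism were taken from lists. Beside the counts of these lists, 32.7% of all genes were called toward DRG and 10.2% toward SC on the deposited scaling. On all 3 scalings, the shares of all genes were 17.8% and 10.1%. The electron carriers, which link the complexes and feed them, had the highest median of these lists: 0.74 over 6 genes on the deposited scaling, with 0.50 after quantile normalization and 0.44 before the array factors, with 5 called higher in DRG on the deposited scaling. Etfa, the alpha subunit of the flavoprotein that carries electrons from fatty acid oxidation, had 1479, 1300 and 1575 in DRG, against 516, 463 and 563 in SC, with a difference of 1.47 ± 0.10 (SE, n = 3 per tissue, limma adjusted p = 1.95e-06). Its partners Etfb and Etfdh gave 0.90 and 1.08, and all 3 were called higher in DRG on 3 scalings. Cycs, cytochrome c, gave 0.57 and Cyc1 gave 0.24, and both were called toward DRG on the deposited scaling. Quantile normalization gave 0.02 for Cycs, which was not called, and -0.36 for Cyc1, which was called toward SC (limma adjusted p = 0.00194).

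The list of assembly factors of complexes II to V also held Atpif1, an inhibitor. The 25 genes of the list had a median of 0.60, with 18 called toward DRG and 2 toward SC, and 9 and 2 called so on 3 scalings. Atpif1, the inhibitor of ATP synthase that acts when the proton gradient fails, had 3597, 2966 and 3575 in DRG, against 1484, 1300 and 1505 in SC, with a difference of 1.23 ± 0.09 (limma adjusted p = 4.77e-06). Atpaf1, a chaperone of the catalytic head, was opposite, with 694, 622 and 537 in DRG, against 934, 925 and 811 in SC and a difference of -0.52 ± 0.10 (limma adjusted p = 0.00253). Assembly factors of complex I with other names had a median of 0.09 over 6 genes, and Nubpl, which delivers iron-sulfur clusters to the complex, was the highest at 1.41, with 1 of 3 SC arrays above background.

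Regulators of mitochondrial biogenesis went both ways, with a median of 0.10 over 12 genes, 2 called toward DRG and 3 toward SC on all 3 scalings. Ppargc1a, the coactivator that drives expression of respiratory genes, had 332, 257 and 341 in DRG, against 548, 567 and 515 in SC, with a difference of -0.79 ± 0.12 (SE, n = 3 per tissue, limma adjusted p = 0.000396). Every SC array lay above every DRG array. Tfam, which packages mitochondrial DNA, and Ppargc1b were also called higher in SC, at -0.51 and -0.26. Tfb1m, which methylates mitochondrial ribosomal RNA, had 325, 373 and 411 in DRG, against 117, 109 and 134 in SC, with a difference of 1.50 ± 0.14 (limma adjusted p = 1.89e-05), and Yy1, a transcription factor, gave 0.82.

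The citric acid cycle and pyruvate dehydrogenase had a median of 0.42 over 17 genes, with 10 called higher in DRG, against -0.09 after quantile normalization, with 3 called toward DRG and 6 toward SC. Pdha1, the pyruvate dehydrogenase subunit under phosphorylation control, was highest at 0.87. Glycolysis had a wider range over its 13 measured genes. Ldha, the lactate dehydrogenase form that favours lactate production, had 4884, 4491 and 4451 in DRG, against 889, 908 and 858 in SC, a difference of 2.36 ± 0.06 (limma adjusted p = 9.07e-09). Aldoc, the brain form of aldolase, had 2439, 2379 and 2411 in DRG, against 8393, 7117 and 8350 in SC, a difference of -1.71 ± 0.08 (limma adjusted p = 1.92e-07). Ldhb, the other lactate dehydrogenase form, was called higher in SC at -0.40. Genes of the outer membrane and of protein import had a median of 0.57 over 12 genes, with 9 called higher in DRG and 2 on all 3 scalings, the highest being the import receptor Tomm70a at 1.22.

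**Figure D4:**
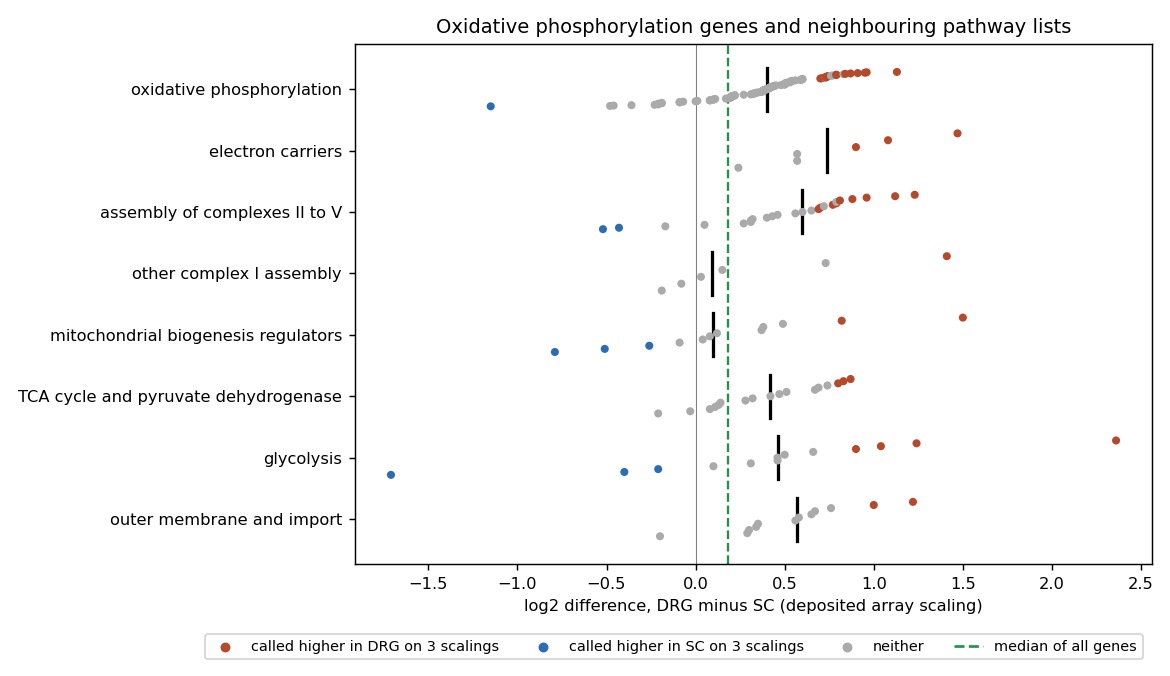
Log2 difference, DRG minus SC (deposited array scaling), of the 90 oxidative phosphorylation genes and of neighbouring lists; each point is a gene, black bars are medians, and colour marks genes called in the same direction on 3 scalings. The oxidative phosphorylation genes lie within -1.15 to 1.13, while glycolysis reaches from -1.71 for Aldoc to 2.36 for Ldha.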

How the data were processed

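Total RNA of 3 DRG pools and 3 SC pools was hybridised to 3′ expression arrays with 45101 probe sets. The submitters' processing notes name MAS5, without a version. What the authors deposited is a linear ratio per probe set and array. From the values, each deposited ratio was a signal divided first by an array factor and then by the median of that probe set (median 1 in 91.8% of probe sets). The planned test assumed signals, and the ratios hold no level, so signals were recovered from the 0.1 steps in which MAS5 writes them, for 45092 probe sets. On 4000 simulated probe sets, 98.4% were recovered exactly, 1.6% up to a whole factor and 0.05% wrongly. The array factors were 8.49, 8.95 and 8.45 for DRG, against 11.1, 11.2 and 11.3 for SC, up to a common factor. Before them, median signals were 82.6 to 87.5 in DRG and 108.3 to 109.9 in SC, with a trimmed mean of 247.1 to 247.3 on each array.

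Of 45101 probe sets, the platform annotation gave 1 gene for 34945, several for 932 and none for 9160, beside 64 controls. A gene was its probe set of highest mean log2 signal. Differences on the log2(signal + 16) scale were fitted in R 4.3.3 with limma 3.58.1 (lmFit, eBayes with trend, two-sided, Benjamini-Hochberg over 18192 genes or 45030 probe sets, threshold 0.05), and tested on simulated data. Balances of isoform pairs were tested with exact permutation tests. Alternatives were other scalings, pseudocounts, probe set rules, the deposited ratio, the replicate block and leaving out arrays. Signals were recovered with numba 0.67.0 and numpy 2.4.6, tables were made with pandas 2.3.3 and plots with matplotlib 3.10.9, under Python 3.11.15.

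The genes named by rule were those called with a log2 difference of at least 1 and arrays that did not overlap, all members of isoform pairs, the highest and lowest of each complex, all of complex II, any with probe sets called in opposite directions, and of each other list the called gene with the largest difference in each direction. Other named genes were chosen after their values were seen. The members, the lists and the tests were chosen with earlier results of these data known. With 3 arrays per tissue, their number limits the precision. Files recorded 0 columns outside the 6 arrays.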

Additional observations from a re-analysis of the deposited data

How the results depend on the processing

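Array scaling decided the counts. The genes called higher in DRG numbered 62 on the deposited scaling, 14 with quantile normalization and 20 before the array factors, and those called higher in SC numbered 1, 33 and 16. For probe sets the counts were 107, 17 and 32 higher in DRG and 2, 47 and 23 higher in SC. The median of the 90 genes was 0.40, -0.14 and 0.04. In limma's test averaging all probe sets per gene gave 2 genes higher in SC, the log2 of the deposited ratio gave 0 (4 at an unadjusted p under 0.05), and leaving out the 3 arrays of high muscle signal, an alternative added after seeing the data, gave 21 higher in DRG and 0 in SC (0 also unadjusted), where fewer arrays were tested. With the replicate number as a block, 62 and 1 genes were called and the median was 0.40; of the 29 named members, the block changed the call of Atp5j only (limma adjusted p = 0.0333). The numbers did not pair the arrays, whose deviations from tissue means correlated at 0.01, -0.03 and 0.00 between equal numbers. Leaving out 1 array gave 54 to 67 genes higher in DRG, 1 to 1 higher in SC and medians of 0.37 to 0.45. Balances ranged over -0.48 to -0.40 for Cox4i2/Cox4i1, -1.0 to -0.83 for Cox6a2/Cox6a1, -1.05 to -0.86 for Cox6b2/Cox6b1, -0.88 to -0.59 for Cox7a1/Cox7a2, -1.14 to -0.52 for Cox8b/Cox8a, -0.29 to -0.08 for Cox8c/Cox8a, -1.10 to -0.95 for Ndufa4l2/Ndufa4, 0.24 to 0.39 for Atp5g1/Atp5g3, -0.05 to 0.05 for Atp5g2/Atp5g3 and 0.30 to 0.37 for Atp5g1/Atp5g2. Signs turned for the Cox4i2 (0.09) and Cox8c (0.05) balances with quantile normalization, for Atp5g1/Atp5g3 (-0.17) and Atp5g1/Atp5g2 (-0.03) with the mean of probe sets, and for Cox8b/Cox8a (0.06) without the muscle arrays. Named genes also turned. With quantile normalization, values were -0.17 for Atp5g2, -0.05 for Atp5g3, -0.39 for Atp5j, -0.45 for Cox4i1, -0.03 for Cox7a1, -0.21 for Cox8a, -0.15 for Cox8c, -0.01 for Sdhb and -0.48 for Uqcrc1. Before the array factors they were -0.17 for Atp5j, -0.29 for Cox4i1, -0.32 for Cox7a1, -0.14 for Cox8c and -0.27 for Uqcrc1. The mean of probe sets gave -0.33 for Cox8c, 0.12 for Sdha and 0.08 for Sdhc. Without the muscle arrays they were -0.04 for Cox4i1, 0.29 for Cox8b and -0.02 for Uqcrc1. Leaving out 1 array gave -0.11 to 0.18 for Cox7a1 (-0.08 and -0.03 among the turned values) and turned Sdhc, at 0.01 to 0.06. The causes were not tested. Over all alternatives, 405 of the named members' values kept their direction and side of the threshold, 26 turned, 13 newly passed and 11 no longer passed. Forms at background level have no measured fold.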

Other observations

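Several probe sets name a respiratory chain gene together with a related copy and stood outside the choice of members. The probe set of Ndufa11 and Ndufa11b, a membrane subunit of complex I, had signals of 3260, 2444 and 3169 in DRG, against 1738, 1612 and 1816 in SC. The groups did not overlap, and the difference was 0.76 (limma adjusted p = 0.000529 over probe sets), 0.17 after quantile normalization and 0.39 before the array factors. The probe set of Ndufs6 and Ndufs6b, a zinc-binding subunit, had means of 1845 ± 237 in DRG and 1382 ± 49.5 in SC (SD, n = 3 each), a difference of 0.41 that was -0.17 after quantile normalization. The probe set of Ndufs5 and a pseudogene had means of 1566 ± 142 in DRG and 1167 ± 9.92 in SC (SD, n = 3 each), a difference of 0.42 that was -0.13 after quantile normalization.

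Of 13 pericyte and smooth muscle markers, 5 were called higher in DRG and 3, Abcc9, Notch3 and Higd1b, higher in SC, with a median difference of -0.09. Their summed signal was 5140 to 5233 in DRG and 3632 to 3758 in SC, mostly from Rgs5, a pericyte gene with means of 2876 in DRG and 1668 in SC. Higd1b was below background on every array. The summed signal of 8 adipocyte markers was 1050 to 1257 in DRG and 537 to 654 in SC. In DRG, Car3 had the largest signal of the 8. Of these 8, Adipoq, Car3 and Fabp4 were called higher in DRG on all 3 scalings, and 0 were called higher in SC. The other 5 were not called and went both ways. Cidea, Elovl3 and Lep gave -0.52, -0.32 and -0.45, and Ucp1 and Retn gave 0.44 and 0.15. Fabp4 had 223, 175 and 211 in DRG, above background, against 60.2, 46.4 and 72.9 in SC, below it. Car3 had means of 529 in DRG and 185 in SC, above background on 3 DRG arrays and 2 SC arrays. Adipoq, the hormone of fat cells, had 80.9, 76.7 and 72.3 in DRG, against 7.37, 6.58 and 23.1 in SC, below background on every array. Ucp1, which uncouples respiration in brown fat, had 37.1, 9.54 and 23.1 in DRG, against 15.1, 7.28 and 13.4 in SC, with overlapping arrays and also below background. The part of these cells in the differences of the respiratory chain was not tested.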
